A study of Mus musculus with 15 samples.

Results

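The seed family of miR-148 and miR-152 is the group of mouse miRNAs cut from the precursors Mir148a, Mir148b and Mir152. Its members were taken by name, as every array entry called miR-148a, miR-148b or miR-152 with a 5p or 3p arm. The rule found 4 of the 696 mouse miRNAs on the array, namely mmu-miR-148a-3p, mmu-miR-148b-3p, mmu-miR-152-3p and mmu-miR-148a-5p, written below without the species prefix. Liver miRNAs were measured in 15 male mice of a strain labelled B6C57/J, which the methods call C57BL/6, 5 per diet, with 1 Agilent 1-color array per mouse. All diets began at an age of 1 year and were kept for life. The standard diet group (SD) ate AIN-93G, a purified rodent diet, without limit. The caloric restriction group (CR) received that diet at 40% restriction, and the metformin group (Met) ate it without limit with 0.1% w/w metformin, a glucose-lowering drug. The age at which livers were taken is not given in the sources used here. The diets were compared to ask whether a long-term dietary or drug intervention changes liver miRNA levels.

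miRNAs are short RNAs that guide Argonaute proteins to messenger RNAs, mostly by pairing of the seed near their 5′ end, and so lower the output of the targeted genes. In hepatocytes miR-148a is an abundant miRNA and is known for repressing Abca1, an exporter of cholesterol. miR-148b and miR-152 carry the same seed and can bind the same target sites, which is why the 3 are treated as a family.

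The mature 3p sequences are shown because the shared seed defines the family. They are from RefSeq for the mouse assembly GRCm38.p6, where all 4 entries had a match, and capitals mark the seed, bases 2 to 8 from the 5′ end. The last line gives miR-130a-3p, whose seed is shifted by 1 base against that of the family.
miR-148a-3p: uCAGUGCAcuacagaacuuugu
miR-148b-3p: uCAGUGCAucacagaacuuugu
miR-152-3p: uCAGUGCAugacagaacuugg
miR-130a-3p: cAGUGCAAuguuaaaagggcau
In that assembly miR-148a-3p lies at chr6:51269829-51269850 on the minus strand, miR-148b-3p at chr15:103285185-103285206 on the plus strand and miR-152-3p at chr11:96850439-96850459 on the plus strand. Mir148b lies within the bounds of Copz1 and Mir152 within those of its paralog Copz2, genes for subunits of the COPI vesicle coat. Mir148a lies within the predicted gene Gm38821. The seed CAGUGCA was found at bases 2 to 8 of 3 of 1679 mature names in the table, the 3 shown here. miR-148a-3p and miR-148b-3p were identical at 20 of 22 positions (90.9%), and their substitutions, counted from the 5′ end with the base of miR-148a-3p first, were C9U and U10C. miR-152-3p matched miR-148b-3p at 19 of 21 positions, with C10G and U20G, and miR-148a-3p at 18 of 21, with C9U, U10G and U20G. The GC content was 40.9% for both miR-148 species and 47.6% for miR-152-3p. The family members thus differed mainly just behind the seed. Whether the array probes tell members this alike apart was not tested.

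Levels are given in z-scores. For each array, the natural log of the median brightness of a spot was centered on the mean of all its spots and divided by their standard deviation, so that a z-score counts standard deviations of that array. A second scale is the total gene signal, the scanner software's background-subtracted intensity of a miRNA on that array, which is not scaled between arrays and is set to 0.1 where a miRNA is not detected. Each 3p member was read by 2 probes with 10 spots each per array. miR-148a-3p and miR-148b-3p were detected on 15 of 15 arrays. miR-152-3p was detected on all 5 SD and all 5 Met arrays but on 3 of 5 CR arrays, with CR mice 2 and 3 missing. miR-148a-5p, the other arm of the Mir148a precursor, was detected on 0 of 15 arrays, with z-scores between -0.359 and -0.278, and it was not tested. The remaining 3 members were among the 178 miRNAs tested, which the software had detected throughout 1 or more diet groups.

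The liver label was checked with miR-122-5p, the dominant hepatocyte miRNA. It was detected in every sample, at a total gene signal between 9922 and 25990, and it was the most abundant entry of the hepatocyte list. The arrays of CR mice 2 and 3 stood apart from the rest. Over miRNAs detected on every array, their median Pearson correlation with other arrays was 0.928 and 0.923, against 0.967 to 0.990 for the other 13. The software detected 167 and 151 miRNAs on them, against 170 to 205 on the others. Their negative control spots, at medians of 116 and 112.5, lay within the range of 104 to 116 on the other arrays. The log2 of the total gene signal summed over all miRNAs was 16.68 and 16.44 on them, against 16.95 to 17.90 on the others. The main differences or Z ratios of the tested members and of the miRNAs that met the criteria are therefore also given without these 2 mice. This was done where leaving them out ends a call or moves a value by over 1.5 times. For miR-30c-5p and miR-20a-5p, the z-scores of these mice are given instead. The slides also differed between diets. Slide 1 held the 5 SD arrays and Met mice 1 to 3, and slide 2 held the 5 CR arrays and Met mice 4 and 5.

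miR-148a-3p had z-scores of 1.79, 1.82, 2.04, 1.81 and 2.004 in SD mice 1 to 5. In CR mice 1 to 5 the z-scores were 1.73, 0.455, 0.272, 1.28 and 1.64. In Met mice 1 to 5 they were 1.81, 1.87, 1.93, 1.77 and 2.04. Every CR mouse lay below every SD and every Met mouse, with CR mice 2 and 3 far down, CR mouse 4 between, and CR mice 1 and 5 just under the other groups. The total gene signal of miR-148a-3p followed the same course. It was 582, 554.5, 822, 578 and 724.5 in SD, then 549.5, 99.8, 63.3, 311.5 and 520 in CR, and 614, 623, 658, 598 and 791 in Met. On that unscaled intensity every CR mouse was below all SD and Met mice, but the log2 of the signal summed over all miRNAs was also lower on every CR array (16.44 to 17.36) than on every SD array (17.47 to 17.90), with Met at 17.31 to 17.70. The part of overall array signal in this unscaled difference was not tested.

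miR-152-3p, the member with the shortest sequence here, had z-scores of 0.0200, 0.00798, 0.117, 0.0196 and 0.108 in SD mice 1 to 5. In CR they were 0.00291, -0.199, -0.250, -0.112 and -0.0140. In Met they were 0.119, 0.0486, 0.0559, 0.102 and 0.143. Again all CR mice lay below all SD and Met mice, with CR mice 2 and 3 lowest, although CR mouse 1 was within 0.01 of SD mouse 2. The total gene signal was 44.5, 40.7, 63.5, 44.9 and 58.3 in SD and 61.5, 48.6, 47.8, 61.4 and 67.0 in Met. In CR it was 42.2 in mouse 1, 22.2 in mouse 4 and 42.5 in mouse 5, and at the software's floor of 0.1 in mice 2 and 3, so that CR overlapped SD on this scale.

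miR-148b-3p, which differs from miR-148a-3p at 2 positions, had z-scores of -0.156, -0.133, -0.117, -0.160 and -0.148 in SD mice 1 to 5. In CR they were -0.137, -0.139, -0.156, -0.149 and -0.167, and in Met -0.108, -0.146, -0.165, -0.156 and -0.102. The 3 groups overlapped, although the highest SD and Met values lay above every CR mouse, and CR mice 2 and 3 did not stand out. Its total gene signal ranged from 16.1 to 22.7 in SD, from 10.4 to 19.3 in CR and from 16.1 to 26.1 in Met, with the lowest CR value in mouse 3.

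**Figure D1:**
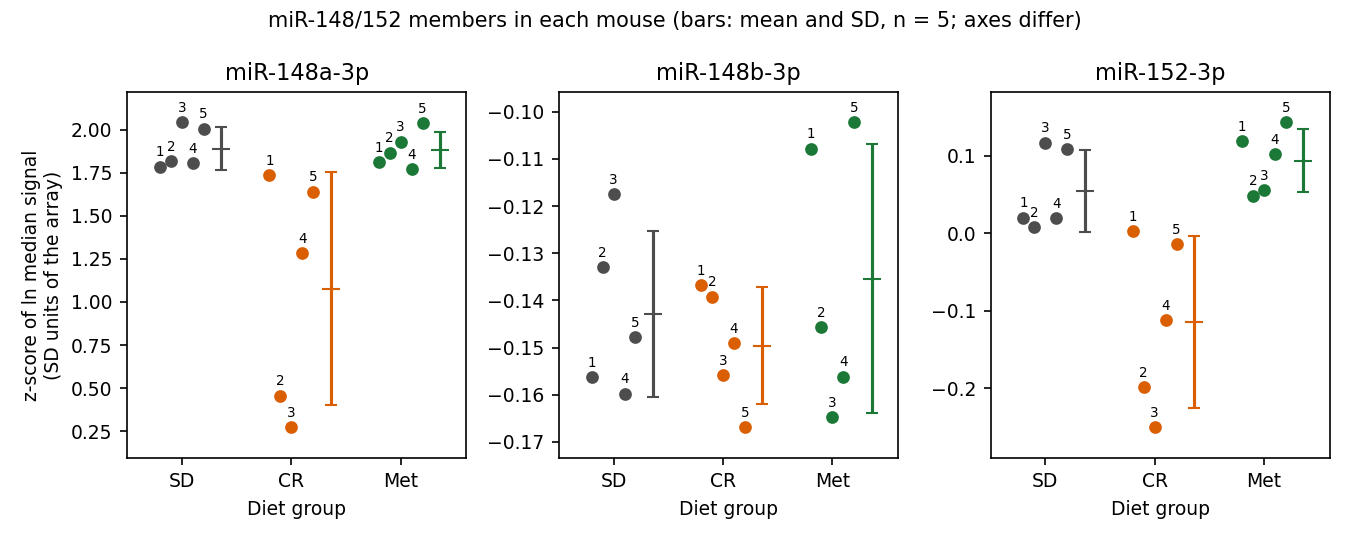
z-scores of the 3 tested members (vertical axes, in standard deviations of the array, with a separate range in each panel) by diet group, 1 numbered point per mouse, with the group mean and standard deviation (n = 5) as bars. CR mice lie below all others for miR-148a-3p and miR-152-3p on this scale, lowest in mice 2 and 3, while the groups overlap for miR-148b-3p.

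**Figure D2:**
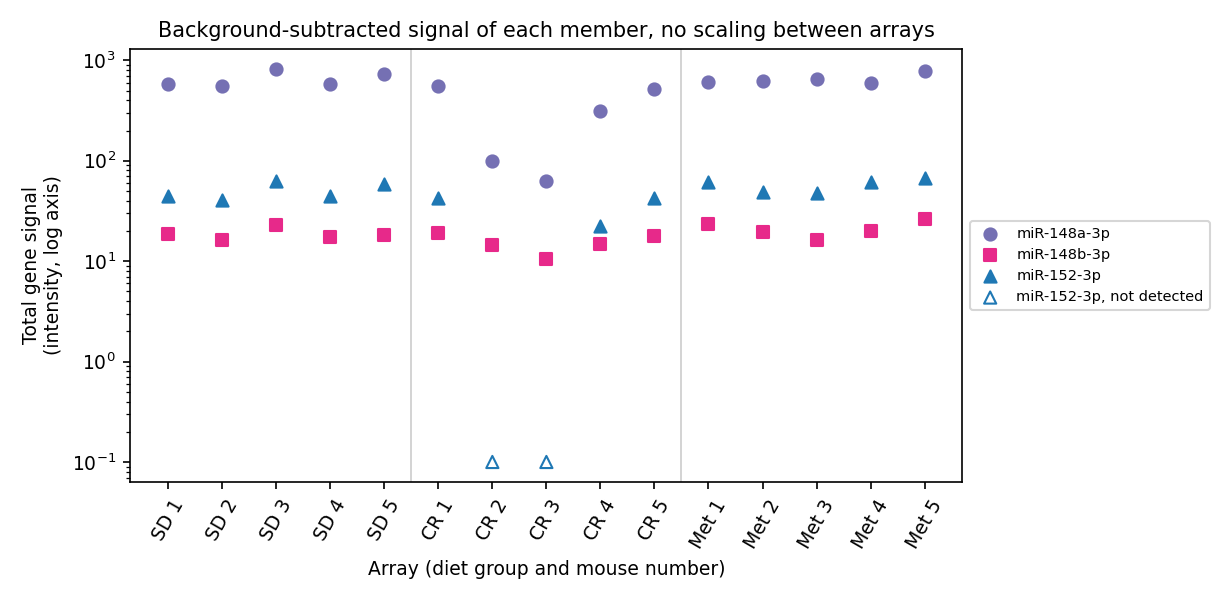
Total gene signal (background-subtracted intensity, log axis) of each member on each of the 15 arrays, without scaling between arrays, with open symbols at the floor of 0.1 where miR-152-3p was not detected. On the arrays of CR mice 2 and 3, miR-148a-3p is at 99.8 and 63.3 and miR-152-3p is not detected, while miR-148b-3p remains detected.

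For each comparison, limma was fitted over all tested miRNAs and all 15 arrays. A miRNA met the criteria at a p of 0.05 or less, a Benjamini-Hochberg adjusted p of 0.3 or less and an absolute Z ratio of 1.5 or more. The Z ratio sets the difference in mean z-score against the spread (standard deviation) of such differences among the 696 miRNAs. CR against SD and CR against Met share the CR arrays, and both comparisons with SD share the SD arrays, so the comparisons are not independent.

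Caloric restriction against standard diet asks how a long cut in food intake relates to the level of these miRNAs. miR-148a-3p fell from 1.89 ± 0.122 in SD to 1.08 ± 0.676 in CR (mean z-score ± standard deviation, n = 5). The difference of -0.813 (standard error 0.230, 95% interval -1.30 to -0.324) had an adjusted p of 0.0196 with limma and a Z ratio of -4.89. miR-148a-3p met the criteria, and its direction was the same under each scaling tried. The fit shares 1 spread over the 3 groups, while the spread of miR-148a-3p was largest in CR, so this interval is narrower than CR and SD alone give. With only these 2 groups in the fit, the standard error was 0.262 and the limma adjusted p 0.0539, and the criteria were still met. In bulk liver, fewer cells that make a miRNA and less of it per cell cannot be told apart. miR-152-3p was at 0.0546 ± 0.0533 in SD and -0.114 ± 0.111 in CR. Its difference of -0.169 (standard error 0.0447, limma adjusted p = 0.0154) was larger than the spread, but its Z ratio of -1.02 was under the limit, and with the 75th percentile of detected probes as the scale it turned to higher. It met the criteria, lower in CR, with total gene signals (Z ratio -3.38) and background-subtracted signals (-2.76), where its values in CR mice 2 and 3 lie at or near a floor. For miR-148b-3p the difference was -0.00668, with a 95% interval of -0.0380 to 0.0246 and a limma adjusted p of 0.764, and its sign turned under that same percentile, where it met the criteria as higher in CR (Z ratio 2.09), and with background-subtracted and total gene signals.

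Of the 3 tested members, 1 met the criteria between CR and SD, where 17.4% of all tested miRNAs met them and 14.6% were lower in CR. At a limma adjusted p of 0.05 or less, 2 of the 3 were lower, against 18.5% of all tested miRNAs. One of the 2, miR-152-3p, entered the test through its detection in SD and Met and is not tested when detection on all arrays is required. Little is therefore read from this count or from its adjusted p. The z-scores of 2 of the 3 members did not overlap between the groups, all CR mice being lower, which held for 7.87% of all tested miRNAs. miR-152-3p is again among the 2, so little is read from this count either. Without CR mice 2 and 3 the difference of miR-148a-3p was -0.337 (standard error 0.105, Z ratio -2.93, limma adjusted p = 0.0703) and it still met the criteria. That of miR-152-3p was then -0.0957 (limma adjusted p = 0.129).

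No slide held both SD and CR arrays. With the slide as a block, the difference of miR-148a-3p was -0.846 with a 95% interval of -1.74 to 0.0433, and the limma adjusted p of 0.257 came with an unadjusted p of 0.0607, so the criteria were not met. With the total gene signal, scaled to the 75th percentile of detected miRNAs, the log2 difference of miR-148a-3p was -0.96 (limma adjusted p = 0.0285) but the Z ratio was -0.973. Over 16 alternatives, leaving out single mice aside, the adjusted p of miR-148a-3p ranged from 0.0121 to 0.257, and over 15 that of miR-152-3p from 0.0131 to 0.218.

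Caloric restriction against metformin sets the interventions side by side. miR-148a-3p was at 1.88 ± 0.104 in Met (mean z-score ± standard deviation, n = 5). It was lower in CR by a difference of -0.806 (standard error 0.230, 95% interval -1.29 to -0.317), with an adjusted p of 0.0262 by limma and a Z ratio of -5.19, and it met the criteria. Its direction held under each scaling tried. With only CR and Met in the fit, the standard error of miR-148a-3p was 0.266 and the limma adjusted p 0.0574, and the criteria were still met. miR-152-3p was at 0.0936 ± 0.0405 in Met. Its difference of -0.208 (standard error 0.0447, limma adjusted p = 0.0102) again had a Z ratio under the limit, at -1.34. It passed the limit with quantile normalization (-1.67), normexp background correction (-1.75), total gene signals (-3.66) and background-subtracted signals (-2.98), and turned to 0.776 when the 75th percentile of detected probes set the scale. miR-148b-3p differed by -0.0142 (95% interval -0.0455 to 0.0171, limma adjusted p = 0.434), with a change of sign under that last scaling (Z ratio 1.93, criteria met) and with background-subtracted and total gene signals.

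Between CR and Met, 1 of the 3 tested members met the criteria, against 20.8% of all tested miRNAs, or 16.3% lower in CR. At a limma adjusted p of 0.05 or less, 2 of the 3 were lower, where 20.8% of all tested miRNAs were, and the same limit holds for miR-152-3p. For 2 of the 3, all CR mice were below all Met mice, which held for 8.99% of all tested miRNAs. miR-152-3p is among these 2 as well, so little is read from this count or from its adjusted p. Without CR mice 2 and 3, miR-148a-3p differed by -0.330 (Z ratio -3.49, limma adjusted p = 0.0998) and met the criteria, and miR-152-3p differed by -0.135 (limma adjusted p = 0.0748). Slide 2 held 5 CR and 2 Met arrays. On it alone, the differences were -0.825 for miR-148a-3p (limma adjusted p = 0.228) and -0.237 for miR-152-3p (limma adjusted p = 0.201), with neither meeting the criteria. With the total gene signal, miR-148a-3p had a log2 difference of -0.84 (limma adjusted p = 0.0441), but the spread of all differences was 0.927 and the Z ratio -0.909, so it did not meet them. The adjusted p of miR-148a-3p ranged from 0.0244 to 0.228 over 17 alternatives and that of miR-152-3p from 0.00166 to 0.243 over 16.

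Metformin against standard diet asks whether the drug alone shifts these miRNAs in mice that eat freely. None of the 3 tested members met the criteria with limma, 0 reached 0.05 without adjustment, and 0 were called by the pairwise test of the methods (normal approximation), where the shares of all tested miRNAs were 1.12%, 6.74% and 7.30% in that order. The difference of miR-148a-3p was -0.00747 (95% interval -0.496 to 0.481, limma adjusted p = 0.986), and some scalings turned its sign. Most of that width came from the spread in CR, which the fit shares, and without CR mice 2 and 3 the interval was -0.204 to 0.189. miR-148b-3p differed by 0.00749 (95% interval -0.0238 to 0.0388, limma adjusted p = 0.930). miR-152-3p differed by 0.0390 (95% interval -0.0560 to 0.134, limma adjusted p = 0.930). All 3 differences were smaller than the standard deviation among the SD mice. On slide 1, which held 5 SD and 3 Met arrays, they were -0.0208, 0.00341 and 0.0198.

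**Figure D3:**
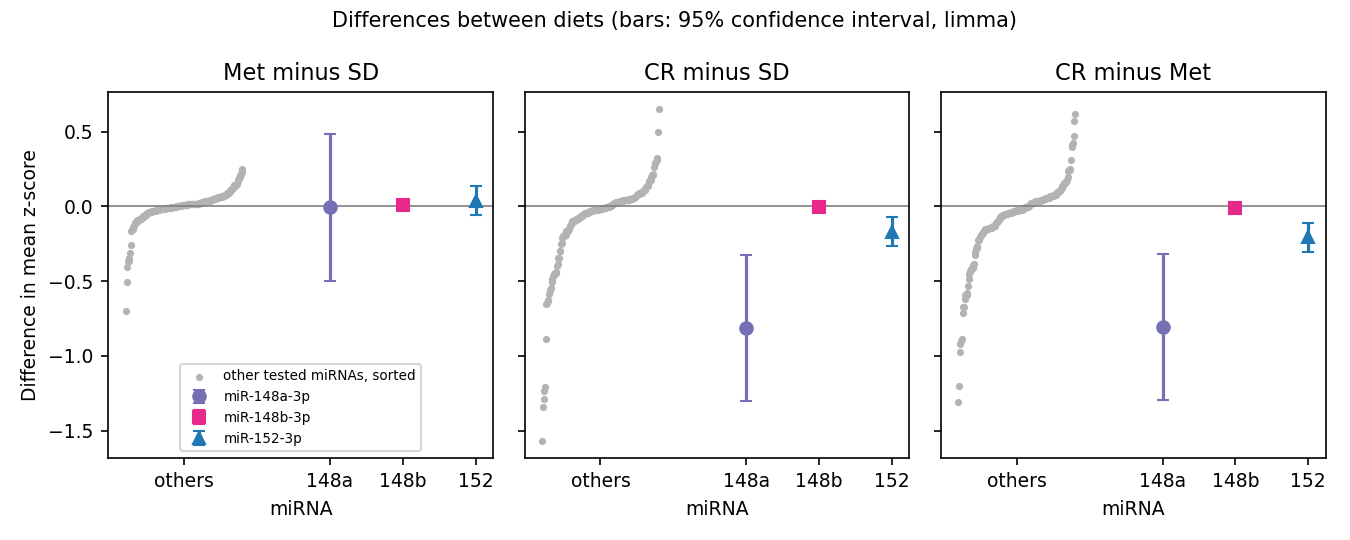
Difference in mean z-score between diets (vertical axis) for the other tested miRNAs, sorted (gray), and for the 3 members with 95% confidence intervals from limma. In both comparisons with CR, miR-148a-3p lies near -0.81 and below most tested miRNAs, in a direction shared by each scaling tried, while miR-152-3p and miR-148b-3p change sign when the 75th percentile of detected probes is the scale, miR-148b-3p also with background-subtracted and total gene signals.

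The scalings differ in where they place the median of all tested miRNAs. With the 75th percentile of detected probes as the scale, all tested miRNAs had a median log2 difference of 0.37 for CR against SD and 0.30 for CR against Met. Relative to that median, the log2 difference between CR and SD was -0.90 for miR-148a-3p, -0.13 for miR-152-3p and 0.05 for miR-148b-3p. Between CR and Met the values relative to the median were -0.85, -0.17 and 0.04. miR-148a-3p and miR-152-3p thus lay below the median of all tested miRNAs in CR under this scaling too. The members' distance from the median itself varied with the scaling. Relative to it, the log2 difference between CR and SD ran from -0.70 with quantile normalization to -1.24 with background-subtracted and total gene signals for miR-148a-3p. For miR-152-3p it was -0.22 with quantile normalization, and -1.31 with background-subtracted and -3.62 with total gene signals, where CR mice 2 and 3 are at or near a floor, and that of miR-148b-3p turned to -0.04 with quantile normalization and -0.06 with background-subtracted signals.

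**Figure D4:**
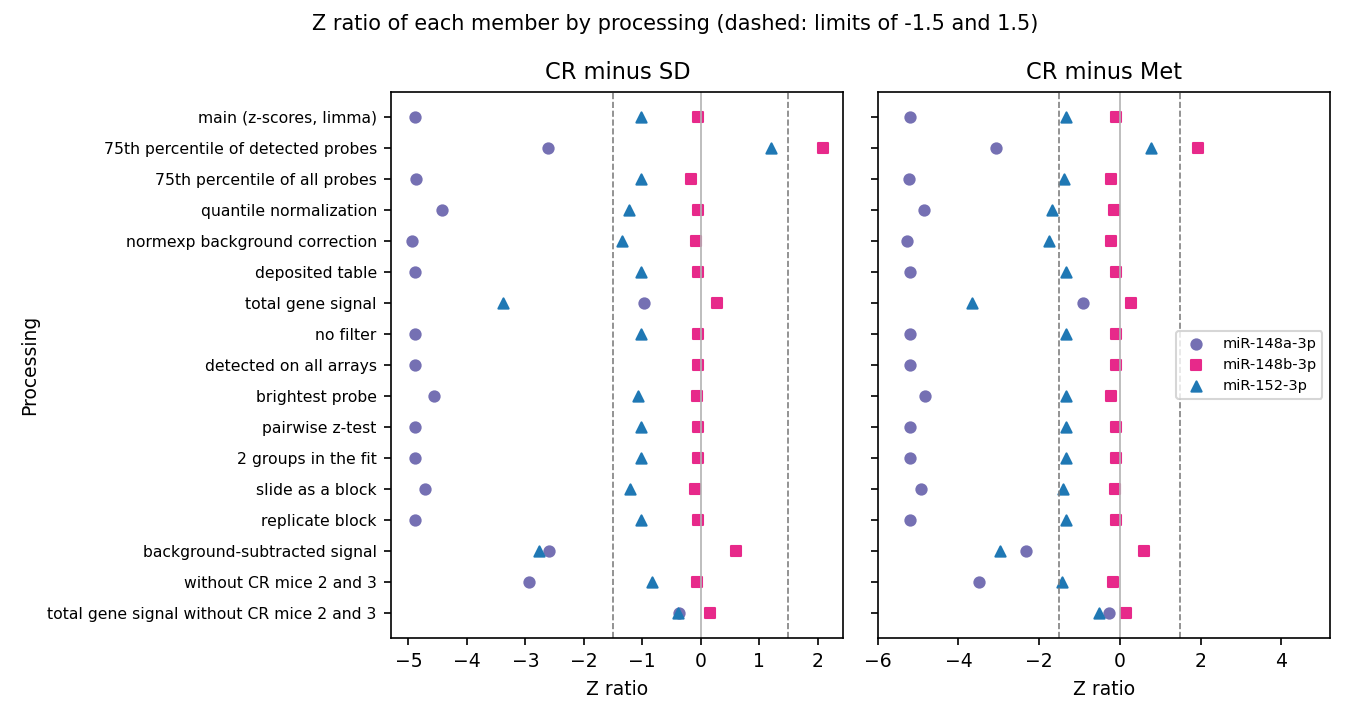
Z ratio of each member (horizontal axis) for CR against SD and CR against Met under each processing listed, with dashed lines at the limits of -1.5 and 1.5. miR-148a-3p is below 0 throughout and inside the limits with total gene signals, and miR-152-3p and miR-148b-3p move to the higher side when the 75th percentile of detected probes sets the scale, miR-148b-3p also with background-subtracted and total gene signals.

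The ratio of total gene signals of miR-148a-3p and miR-148b-3p within an array is free of any scaling between arrays. It is given as a description without a test. The reason is that it was chosen after miR-148a-3p had been seen to fall in z-score and miR-148b-3p to stay on that scale. The ratio was 31.6, 34.5, 36.2, 33.2 and 40.1 in SD mice 1 to 5. In CR it was 28.5, 6.84, 6.06, 20.8 and 29.2, and in Met 26.4, 31.9, 40.9, 30.3 and 30.3. All CR mice were below all SD mice, and CR mice 1 and 5 lay within the range of Met. The mean log2 ratio was 5.13 ± 0.13 in SD, 3.89 ± 1.12 in CR and 4.98 ± 0.23 in Met (± standard deviation, n = 5). The total gene signal of miR-148a-3p holds both its probes, while that of miR-148b-3p equaled its brighter probe alone in each group mean. With the brighter probe of each miRNA, the mean log2 ratio was lower, at 4.30 in SD, 3.10 in CR and 4.16 in Met.

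The mean log2 ratio differed by -1.24 between CR and SD, by -1.09 between CR and Met and by -0.15 between Met and SD. Without CR mice 2 and 3, the difference was -0.44 from SD and -0.29 from Met. On slide 2 alone the difference from Met was -1.03.

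**Figure D5:**
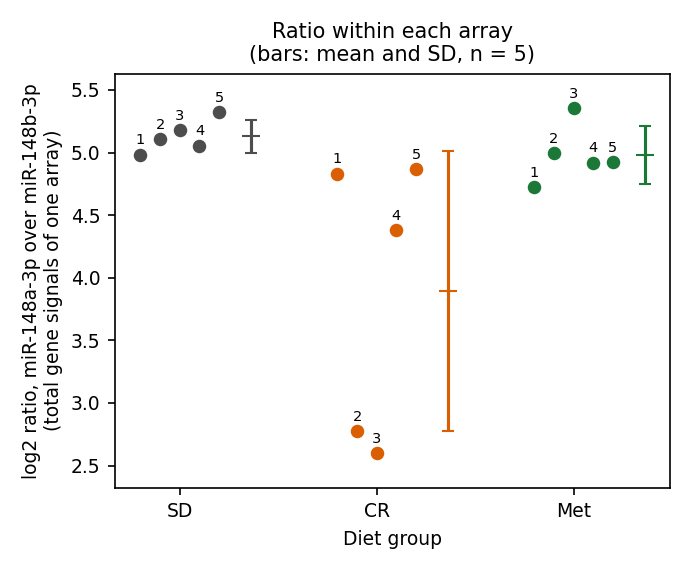
log2 ratio of the total gene signals of miR-148a-3p and miR-148b-3p within each array (vertical axis) by diet group, 1 numbered point per mouse, with mean and standard deviation (n = 5). CR mice 2 and 3 are lowest, CR mouse 4 is next, and CR mice 1 and 5 are below all SD mice and inside the range of Met.

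The ratio rests on a dim denominator, the signal of the brighter miR-148b-3p probe. The 2 probes of miR-148b-3p also disagreed in brightness. Of 150 spots over all arrays, 136 of the first miR-148b-3p probe were well above background and 2 of the other. The readable probe differed by -0.0126 in z-score for CR against SD and by -0.0371 for CR against Met. Both probes of miR-148a-3p were well above background in 150 of 150 spots, with differences between CR and SD of -0.806 and -0.821. For miR-152-3p, 123 and 126 of 150 spots were well above background, with differences of -0.145 and -0.193. In CR these were only 24 and 26 of 50 spots, against 49 or 50 of 50 in SD and Met, so many of the CR spots behind these differences were not well above background.

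Across the 15 arrays, the z-scores of miR-148a-3p and miR-152-3p had a Pearson correlation of 0.943, given as a description since all arrays share the diet groups. It was 0.871 over the 13 arrays other than those of CR mice 2 and 3. The correlation of miR-148b-3p was 0.230 with miR-148a-3p and 0.388 with miR-152-3p, and 0.381 and 0.530 over the 13 arrays. Outside the family, the tested miRNAs most like miR-148a-3p over the 15 arrays were miR-30e-5p (r = 0.990), miR-192-5p (r = 0.990) and miR-19b-3p (r = 0.985). Over the 13 arrays without CR mice 2 and 3, these correlations were 0.939, 0.958 and 0.881. Closest to miR-152-3p were miR-15a-5p (r = 0.961), miR-106b-5p (r = 0.960) and miR-194-5p (r = 0.960). Closest to miR-148b-3p were miR-425-5p (r = 0.666), miR-140-3p (r = 0.642) and miR-34a-5p (r = 0.573). The median correlation with the other tested miRNAs was 0.167 for miR-148a-3p, 0.212 for miR-152-3p and 0.0889 for miR-148b-3p.

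A list of 26 miRNAs with a known part in liver lipid metabolism, all on the array, had 17 tested members. Between CR and SD, 3 of the 17 met the criteria, all lower in CR, which is near the 17.4% of all tested miRNAs. The list had a median difference of -0.0776, where the 178 tested miRNAs had -0.0161. The largest shift of the 3 was that of miR-21a-5p, at a Z ratio of -8.06 (limma adjusted p = 0.0191). Its difference of -1.34 became -0.564 without CR mice 2 and 3 (limma adjusted p = 0.0703), and it still met the criteria. miR-30c-5p, known for repressing the lipoprotein assembly factor Mttp, had -2.09 (limma adjusted p = 0.0959). It no longer met the criteria without CR mouse 2, 3 or 4 or SD mouse 2, 3 or 5, with Z ratios between -2.21 and -1.68. miR-20a-5p, from the cluster of miR-17, had a Z ratio of -1.52 (limma adjusted p = 0.0432), which turned to 0.675 when the 75th percentile of detected probes set the scale. It no longer met the criteria without CR mouse 2, 3 or 4 or SD mouse 3 or 5, with Z ratios between -1.49 and -1.29.

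Between CR and Met, 4 of the 17 met the criteria, all lower in CR and near the 20.8% of all tested miRNAs, and their list had a median of -0.153, where the 178 tested miRNAs had -0.0292. They were miR-21a-5p (Z ratio -8.43, limma adjusted p = 0.0262), miR-30c-5p (-2.65, limma adjusted p = 0.0489), miR-20a-5p (-1.78, limma adjusted p = 0.0274) and miR-34a-5p (-1.70, limma adjusted p = 0.0142). The Z ratio of miR-20a-5p turned to 0.303 and that of miR-34a-5p to 0.373 under that same scaling. miR-30c-5p failed the criteria without CR mouse 2, at a Z ratio of -2.33, and miR-34a-5p without CR mouse 5 or Met mouse 1, at -1.46 each. Over the alternatives, those that met the criteria as in the main fit were 14 of 16 and 14 of 17 for miR-21a-5p (CR against SD, then Met), 5 and 10 for miR-30c-5p, 9 and 11 for miR-20a-5p, and 14 of 17 for miR-34a-5p against Met. The difference of miR-21a-5p between CR and Met went from -1.31 to -0.532 when CR mice 2 and 3 were left out (limma adjusted p = 0.106, criteria met). With those mice left out, miR-30c-5p and miR-20a-5p did not meet the criteria in either comparison. Total gene signals without those mice also turned the sign of miR-30c-5p in both. The z-scores of miR-30c-5p were 1.29 and 1.27 in CR mice 2 and 3, against 1.74 to 2.16 in the other CR mice. They were 1.94 to 2.22 in SD and 2.03 to 2.23 in Met. Those of miR-20a-5p were -0.0722 and -0.0594 in CR mice 2 and 3, against 0.204 to 0.388 in the other CR mice. They were 0.335 to 0.529 in SD and 0.392 to 0.523 in Met. Between Met and SD, 0 of the 17 met the criteria with limma, 1 reached 0.05 without adjustment and 3 were called by the pairwise test. The shares of all tested miRNAs were 1.12%, 6.74% and 7.30% in that order.

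Within this list, miR-122-5p had Z ratios of 1.31 for CR against SD (limma adjusted p = 0.155), -0.221 for CR against Met (limma adjusted p = 0.806) and 4.13 for Met against SD (limma adjusted p = 0.669), and met the criteria in none with limma. Its sign changed with the scaling in both comparisons with CR. It met the criteria between CR and SD with the brightest probe (1.64) and without SD mouse 5 (1.64) or CR mouse 3 (1.82), and between Met and SD with the pairwise test and without SD mouse 5 (4.12). Its Z ratios without CR mice 2 and 3 were 2.13 (against SD) and -0.0728 (against Met), with no call. miR-33-5p, which like miR-148a represses Abca1, was detected on 0 of 15 arrays.

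The group of miR-130 and miR-301 holds AGUGCAA, the family's seed shifted by 1 base. Of its 6 listed members 5 were on the array and 2 were tested. Between CR and Met, miR-130a-3p met the criteria, lower in CR (Z ratio -1.80, limma adjusted p = 0.0617), where 20.8% of all tested miRNAs met them and 16.3% were lower. It also met them in 10 of 17 alternatives, but not without CR mouse 3 (-1.44) or without CR mice 2 and 3 (-1.41). Its z-scores were 1.53 and 1.20 in those mice, 1.54 to 1.84 in the other CR mice and 1.77 to 1.95 in Met. Its sign turned with quantile normalization and with background-subtracted and total gene signals. Between CR and SD, 0 of the 2 met the criteria with limma, 0 reached 0.05 without adjustment and 0 were called by the pairwise test, against 17.4%, 41.6% and 15.2% of all tested miRNAs. Between Met and SD, 0 met them with limma, 0 reached 0.05 without adjustment and 1 was called by the pairwise test, against 1.12%, 6.74% and 7.30%.

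The lists of marker miRNAs for cell types that a liver sample can hold were read in the same way. Of the hepatocyte list, 3 of 3 were tested, and miR-192-5p and miR-194-5p met the criteria lower in CR, where 14.6% (against SD) and 16.3% (against Met) of all tested miRNAs did. Their Z ratios were -5.33 and -3.05 against SD (limma adjusted p = 0.0257 and 0.0440) and -6.30 and -3.84 against Met (limma adjusted p = 0.0258 and 0.0262). The third, miR-122-5p, did not fall with them on this scale. Its z-scores of 6.375 and 6.123 in CR mice 2 and 3 lay within or just outside the SD range of 5.772 to 6.364. Between CR and SD, miR-192-5p met the criteria in 13 of 16 alternatives and miR-194-5p in 9, and between CR and Met they did in 14 and 13 of 17. Both missed them with total gene signals, at Z ratios of -0.774 and -0.299 against SD and -0.810 and -0.317 against Met, and miR-194-5p missed them between CR and SD without CR mice 2 and 3 (-1.42). Without these mice the differences of miR-192-5p went from -0.887 to -0.319 against SD and from -0.978 to -0.409 against Met, and those of miR-194-5p from -0.508 to -0.164 and from -0.596 to -0.252. The summed total gene signal of the hepatocyte list was 26000, 15200, 10500, 18100 and 27700 in CR mice 1 to 5, against 18800 to 29600 in SD and 24600 to 29800 in Met.

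For endothelial cells, both miRNAs of the list were tested, and the more abundant miR-126-3p met the criteria between CR and Met (Z ratio -2.72, limma adjusted p = 0.0852). Of all tested miRNAs, 20.8% met them and 16.3% were lower in CR, so nothing is read from this count. miR-126-3p failed the criteria without CR mouse 2 or 3 or Met mouse 1, 3, 4 or 5, with Z ratios between -2.79 and -2.13. Its sign turned with total gene signals without CR mice 2 and 3. Its Z ratio was -0.761 without these 2 mice, and it met the criteria in 7 of 17 alternatives. The endothelial sum was 809, 218, 215, 471 and 839 in CR mice 1 to 5, against 620 to 886 in SD and 665 to 877 in Met.

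The other lists had no member that met the criteria with limma. Of the leukocyte and Kupffer cell list, led by miR-223-3p, 4 of 6 were tested, and an unadjusted p of 0.05 or less was reached by 2 for CR against SD and by 1 for CR against Met. Over all tested miRNAs, 41.6% and 44.9% had such a p, and with 4 tested members nothing is read from these counts. Its sum was 150, 45.9, 28.0, 87.8 and 213 in CR, 131 to 246 in SD and 136 to 347 in Met. Of the stellate and mesenchymal list, led by miR-199a-3p, 4 of 5 were tested and 2 had such a p in each comparison with CR, near the same shares. These 2 went opposite ways. Against SD and Met, miR-199a-3p was lower in CR (differences of -0.165 and -0.202) and miR-214-3p higher (0.0432 and 0.0357). The sum of this list was 134, 28.2, 30.5, 89.0 and 249 in CR, 140 to 198 in SD and 147 to 214 in Met. Of the erythrocyte list, 1 of 3 was tested, miR-451a, and 0 had such a p in any comparison. Its sum was 349, 33.8, 44.5, 270 and 788 in CR, 265 to 726 in SD and 291 to 621 in Met.

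Of the epithelial list, 1 of 5 was tested, miR-200b-3p, and 0 had an unadjusted p of 0.05 or less. miR-200c-3p, miR-141-3p and miR-429-3p of that list were detected on no array. Its sum was 11.7, 0, 0, 8.75 and 40.4 in CR, 8.05 to 18.9 in SD and 0 to 27.4 in Met. The pairwise test called 0 members of these 4 lists, against 7.30%, 15.2% and 20.2% of all tested miRNAs for Met against SD, CR against SD and CR against Met, and of the muscle list 0 of 3 were tested. All of these sums except that of muscle were at or near their lowest in CR mice 2 and 3, as were miR-148a-3p, miR-152-3p and the signal summed over all miRNAs. The sums are not scaled between arrays, so marker levels and overall array signal cannot be told apart in them, and the part of cell composition in the result was not tested.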

How the data were processed

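Total RNA of 15 livers was Cy3-labeled and hybridized to 1-color Agilent mouse miRNA arrays. The authors deposited the scanner output of Feature Extraction 11.5.1.1, with an intensity per spot on a linear scale and software flags (other values, 0 or 1, deposited with it), and a table of z-scores. These deposited scores equal the z-scores computed here from the median signal, which is not background-subtracted, to within 0.0005. Outlier spots were left out and spots, then probes, were averaged. The number of arrays limits the precision. limma 3.58.1 (R 4.3.3, trend) was run in 1 fit over 178 miRNAs and tested on simulated data, and other steps used Python 3.11.15 with pandas 2.3.3, numpy 2.4.6, scipy 1.17.1 and, for plots, matplotlib 3.10.9. The limits are those of the methods, whose pairwise z-test, with a p by normal approximation, was an alternative. Members and lists were chosen with earlier results of these data known. Named miRNAs are the members, the 3 most correlated with each, and, from the lipid, offset-seed and marker lists (hepatocyte, leukocyte and Kupffer cell, endothelial, stellate and mesenchymal, erythrocyte, epithelial, muscle), those meeting the criteria and the most abundant, plus undetected epithelial markers, all muscle markers, miR-122-5p, miR-33-5p and miR-214-3p. The gene table of GRCm38.p6 gave host genes. The array annotation refers to mm9.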

Additional observations from a re-analysis of the deposited data

How the results depend on the processing

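Chosen after seeing the data were leaving out CR mice 2 and 3, single slides, background-subtracted signals, total gene signals without those mice, and the ratio of miR-148a-3p to miR-148b-3p. Where no cause is named, the cause was not tested. miR-148a-3p met the criteria in 13 of 16 alternatives for CR against SD and in 14 of 17 for CR against Met. Some alternatives change only the filter, the test, the groups in the fit or the replicate block. They keep the main difference and Z ratio, and the deposited scores nearly do. Such counts of alternatives, here and above, are therefore not counts of independent checks. miR-148a-3p missed the criteria with total gene signals (Z ratios -0.973 and -0.909) and with these without CR mice 2 and 3 (-0.370 and -0.270). With total gene signals, where undetected miRNAs sit at a floor, the spread of all differences was 0.987 against SD and 0.927 against Met. With the 75th percentile of detected probes it was 0.200 and 0.177. The part of the floor in this spread was not tested. miR-148a-3p also missed the criteria for SD when slides were a block (-4.72), and for Met on slide 2 (-4.93), with fewer arrays.

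miR-152-3p stayed under the Z ratio limit in most settings. For CR against SD it met the criteria with total gene signals (-3.38) and background-subtracted signals (-2.76), and for CR against Met with those (-3.66 and -2.98), quantile normalization (-1.67) and normexp (-1.75). With total gene signals and background-subtracted signals, its values in CR mice 2 and 3 lie at or near a floor. With the 75th percentile of detected probes it turned to 1.21 against SD and 0.776 against Met. miR-148b-3p turned to higher in CR with that percentile (2.09 against SD, 1.93 against Met, criteria met), total gene signals (0.281 and 0.269), background-subtracted signals (0.595 and 0.593) and total gene signals without CR mice 2 and 3 (0.154 and 0.141). One of its probes was rarely above background, which limits what these arrays can show for it. For Met against SD, miR-148a-3p turned to 0.239 with the 75th percentile of detected probes, 0.214 with quantile normalization, 0.194 with normexp and 0.101 with the brightest probe.

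Of the other miRNAs, these turned: miR-20a-5p with the 75th percentile of detected probes (0.675 against SD, 0.303 against Met) and miR-34a-5p with it (0.373 against Met). miR-30c-5p turned with total gene signals without CR mice 2 and 3 (0.106 against SD, 0.159 against Met), as did miR-126-3p (0.257 against Met). miR-130a-3p against Met turned with quantile normalization (0.477), total gene signals (0.106), background-subtracted signals (0.272) and total gene signals without CR mice 2 and 3 (0.130). miR-122-5p turned against SD with the 75th percentile of all probes (-1.40), and against Met with normexp (0.221), total gene signals (0.256), background-subtracted signals (0.654) and total gene signals without CR mice 2 and 3 (0.318). The log2 ratio, given without a test because it was chosen for what had been seen, differed less for CR against Met without CR mice 2 and 3 (-0.289) and on slide 2 (-1.03). miR-122-5p met the criteria for CR against SD with the brightest probe (1.64) and for Met against SD with the z-test (4.13).

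Over all tested miRNAs, 2 met the criteria for Met against SD, 31 for CR against SD and 37 for CR against Met. In that order, the counts were 0, 120 and 116 with the 75th percentile of detected probes, 0, 20 and 16 with total gene signals, 0, 69 and 78 with background-subtracted signals, and 0, 3 and 2 with total gene signals without CR mice 2 and 3. Without CR mice 2 and 3 they were 5, 22 and 18, and with the slide as a block 0, 17 and 34. For Met against SD the count was 1 with quantile normalization, 1 without a filter, 13 with the z-test, 4 with 2 groups in the fit and 0 on slide 1, and for CR against Met 12 on slide 2. Where limma gave 0, between 5 and 18 had an unadjusted p of 0.05 or less. For CR against SD, 5 were higher and 26 lower, against 110 and 10 with the 75th percentile of detected probes, 0 and 32 with that of all probes, 25 and 17 with quantile normalization and 43 and 26 with background-subtracted signals. For CR against Met, 8 were higher and 29 lower, against 101 and 15, 0 and 31, 22 and 26, and 60 and 18.

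Same-numbered mice had correlations of their deviations between -0.562 and 0.714. Differently numbered mice reached -0.684 (SD mouse 2 with Met mouse 1) and 0.763 (SD mouse 4 with Met mouse 2). The labels only number the mice and give no pairing, and these correlations cannot decide whether there was any. With a replicate block the counts were 2, 32 and 37, and the Z ratios of miR-148a-3p were -4.89 against SD and -5.19 against Met.

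With each mouse left out in turn, Z ratios of miR-148a-3p lay between -5.23 and -4.30 for CR against SD, -5.44 and -4.75 for CR against Met and -0.716 and 0.474 for Met against SD. Those of miR-152-3p lay between -1.12 and -0.877, -1.43 and -1.22, and 0.418 and 0.858, and those of miR-148b-3p between -0.0660 and -0.00197, -0.142 and -0.0399, and -0.0121 and 0.229. The log2 ratio differences lay between -1.48 and -0.916, -1.34 and -0.769, and -0.239 and -0.0813. Counts of miRNAs ranged from 26 to 36, 29 to 42 and 1 to 9. miR-122-5p ranged from -0.420 to 0.0588 for CR against Met.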

Other observations

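The muscle list, miR-133a-3p, miR-1a-3p and miR-206-3p, was detected on the array of CR mouse 5 alone, at total gene signals of 512, 262 and 27.4, and on no other array. These miRNAs are known for skeletal and cardiac muscle. In the same mouse the z-score of miR-148a-3p was 1.64, close to the 1.73 of CR mouse 1.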
